A study of Mus musculus with 61 samples.

Results

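Gene expression in lacrimal glands from male NOD mice was measured before and after 4 weeks of lymphotoxin-beta receptor (LTBR) blockade, and the genes that rose or fell while the blockade was in place are described here. The comparison rests on 8 of the 61 arrays of the series. These are the 4 lacrimal arrays of untreated mice taken at week 8, the age at which injections began, and the 4 lacrimal arrays of mice taken at week 12 after treatment with mLTBR-mIgG1. That protein, called LTBR-Ig, is the mouse receptor's extracellular part joined to a mouse immunoglobulin Fc, given systemically by weekly intra-peritoneal injection. Members were chosen by the tissue, treatment and week in the sample labels, not by any measured value. Lacrimal arrays of week 12 from untreated mice (n = 3) and from mice given MOPC-21 (n = 4), the control mouse IgG1 antibody, serve as references of the same age. All groups are NOD mice with no engineered allele, and the methods describe each lacrimal replicate as both glands of 1 mouse. The full series also covers salivary glands and weeks 14 and 16.

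Male NOD mice develop leukocyte infiltrates in the lacrimal gland that serve as a model of the dry eye of Sjögren's syndrome. LTBR is found on stromal and endothelial cells. Its ligands, lymphotoxin-alpha-beta and LIGHT, come mainly from lymphocytes and other leukocytes, and signalling maintains high endothelial venules (HEV), the vessels through which lymphocytes enter lymphoid tissue, as well as homeostatic chemokines such as CXCL13. LTBR-Ig captures these ligands before they reach the receptor.

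Levels are the deposited GCRMA values on a log2 scale, so a difference of 1 is a 2-fold change. A level of 4 was taken as the floor of detection, and a probe set was tested where at least 2 of the 8 arrays lay above it. Changes were tested with limma, and a gene was called at a fold of 2 or more with a Benjamini-Hochberg adjusted p under 0.05. Between 38.09% and 39.7% of the probe sets lay above 4 on each of the 8 arrays, and the lowest correlation between arrays of a group was 0.986 after LTBR-Ig and 0.992 at week 8. Some secretory products of the lacrimal gland were abundant at like levels in both groups, while Mup5 and Car6, described further on, fell. Sval2, a secreted lacrimal protein, had means of 16.05 and 16.00 at week 8 and week 12, and Lpo, lactoperoxidase, had means of 15.47 and 15.40. Treatment and age change together in this comparison, so their parts cannot be told apart without the week 12 references.

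Many immune genes rose while LTBR was blocked. Of 9818 genes tested, 921 rose (9.38%) and 414 fell (4.22%), and of 19174 probe sets 1587 rose (8.28%) and 866 fell (4.52%). Large changes were nearly all rises, with 222 genes higher by 8-fold or more and 9 lower by as much. At week 8, 9054 of the 18194 genes were above the floor, and 490 of them rose. The median difference over the genes tested was -0.14 on the log2 scale, and over all 18194 genes with a named probe set it was -0.01. Whole-group separation was common, since 4481 of the genes tested (45.6%) had groups that did not overlap. In control mice the same 4 weeks gave 963 genes higher (9.84%) and 342 lower (3.49%) of 9790 under MOPC-21, and 666 higher (6.91%) and 376 lower (3.9%) of 9633 without treatment. By probe sets these shares were 8.98% and 3.69% under MOPC-21 and 6.02% and 3.85% without treatment. These comparisons share the 4 week 8 arrays. Both directions together came to 13.6% of genes and 12.8% of probe sets under LTBR-Ig, 13.3% and 12.7% under MOPC-21, and 10.8% and 9.87% without treatment.

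At week 12, LTBR-Ig and MOPC-21 arrays differed in 6 of 9770 genes (0.0614%), with 2 higher (0.0205%) and 4 lower (0.0409%) under LTBR-Ig. By probe sets 3 were higher (0.0158%) and 7 lower (0.0368%), 0.0525% in all. Against untreated mice of week 12, 1 of 9753 genes did (0.0103%), and it was lower, from 1 probe set (0.00529%). Without untreated replicate 4, which had a mean of 8.08 over the B-cell list against 5.61 and 5.41 in the other untreated arrays, 87 probe sets were called, and without LTBR-Ig replicate 3 there were 4. The 10 probe sets called against MOPC-21 became 5 without LTBR-Ig replicate 3 and 6 without MOPC-21 replicate 4. By limma 0 genes (0%) were called higher after LTBR-Ig than without treatment. At 2-fold or more and an unadjusted p under 0.05, 102 of the 9753 genes were higher and 5 lower. Against MOPC-21 the same unadjusted rule gave 39 higher and 26 lower of 9770. A gene that misses these tests is not shown to be alike in the groups. In whole glands, fewer cells of a type and less RNA per cell cannot be told apart.

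**Figure D1:**
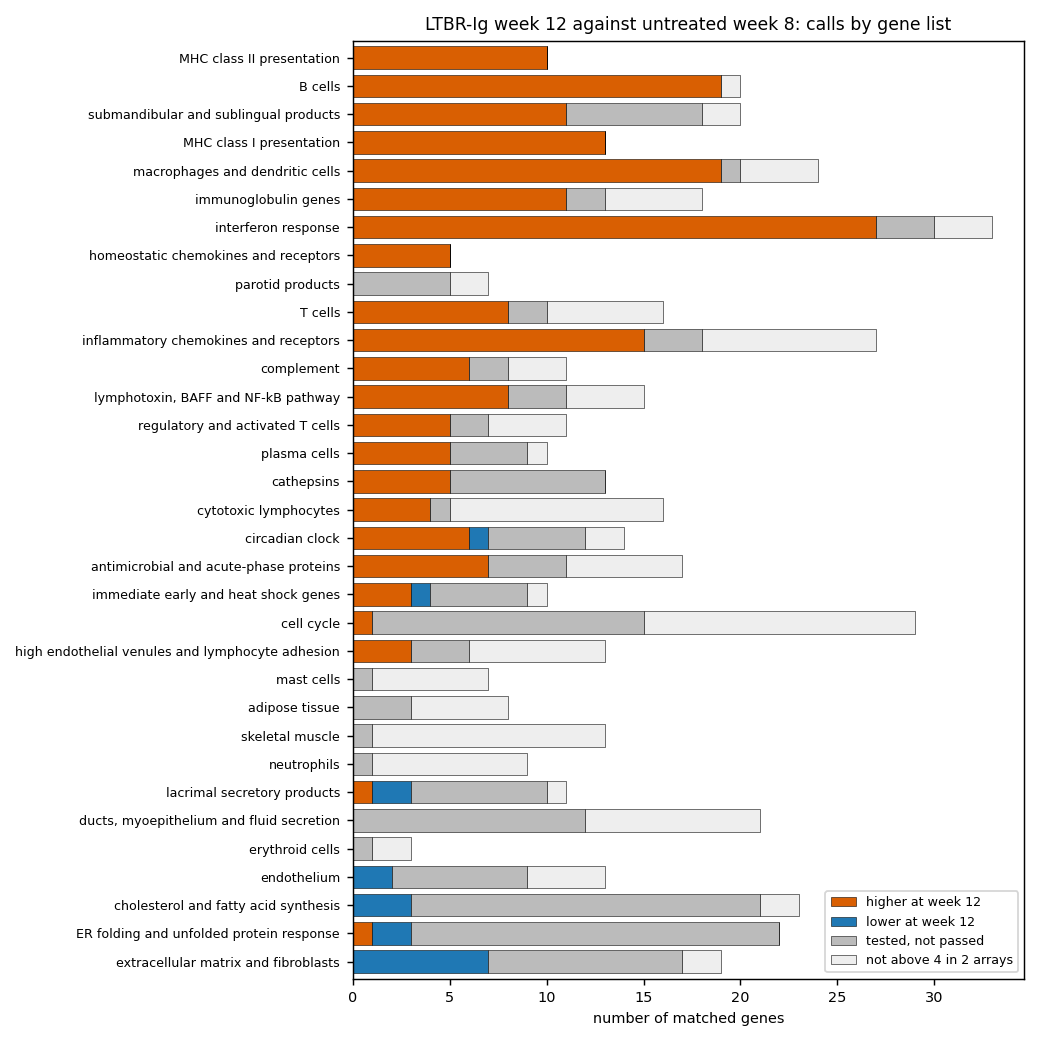
Calls in LTBR-Ig week 12 against untreated week 8 for each gene list. The horizontal axis counts the matched genes of the list, coloured by whether they were higher, lower, tested without passing, or not tested because fewer than 2 arrays lay above 4. In the lists of B cells, macrophages and dendritic cells, and antigen presentation most genes are higher, while 8 of 16 T-cell genes and 4 of 16 cytotoxic lymphocyte genes are, and the list of extracellular matrix genes has 7 of its 19 members lower and none higher.

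B-cell genes were near or below the floor at the start of treatment and well above it 4 weeks later. Of 20 matched B-cell genes, 19 rose and 1 was not tested. Only 3 of them lay above the floor in at least 2 week 8 arrays, and all 3 rose, while 16 were tested through the week 12 arrays alone and had to be higher there. The median over all 20, tested or not, was 3.95 under LTBR-Ig, 4.29 under MOPC-21 and 3.52 without treatment, each on the log2 scale against week 8. The mean of the list was 2.88 to 3.39 in week 8 arrays and 6 to 7.45 after LTBR-Ig.

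Ms4a1, which encodes CD20, stood at 3.64, 3.81, 3.79 and 4.65 in week 8 replicates 1 to 4, and reached 9.20, 9.60, 8.22 and 8.03 in the 4 LTBR-Ig arrays. All 4 treated arrays lay above all 4 starting arrays, a 27.7-fold rise (log2 difference 4.79, standard error 0.56, adjusted p = 2e-07 from limma). MOPC-21 arrays of the same age held 8.58 to 10.31, a range that overlaps that after LTBR-Ig, and the difference between the treatments was -0.51 (adjusted p = 0.86). Cd22, an inhibitory coreceptor of B cells, rose 51.1-fold and Cd79b, a signalling chain of the B-cell receptor, rose 36.5-fold. H2-Ob, which modulates class II loading in B cells, rose 35.6-fold. Ms4a1, Cd22, Cd79b and H2-Ob were above the floor in fewer than 2 week 8 arrays, so their direction follows from the filter.

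Antibody genes rose from different starting levels. Ighm, the IgM heavy chain, stood at 6.93, 6.54, 3.97 and 9.36 in week 8 replicates 1 to 4, the widest starting spread among the genes described, and at 13.66, 13.92, 12.90 and 13.34 after LTBR-Ig. The groups did not overlap, with a log2 difference of 6.76 (standard error 0.65, adjusted p = 7.8e-09). Igha, the IgA heavy chain, went from a range of 7.29 to 10.41 to one of 14.21 to 14.95, near the top of the scale. Jchain, which joins IgA and IgM into polymers, rose 63-fold and Mzb1, a chaperone of antibody-secreting cells, rose 40.3-fold. Of 18 matched immunoglobulin genes 11 rose and 5 were not tested. All 5 above the floor at week 8 rose, and 8 were above it after LTBR-Ig but not at week 8. Of 10 matched plasma cell genes 5 rose, but of the 5 above the floor at week 8 only Jchain did. Irf4 (6.18-fold) and Prdm1 (3.31-fold), transcription factors of plasma cell differentiation, and Mzb1 were below the floor at week 8 and entered the test through the LTBR-Ig arrays alone. Xbp1, a transcription factor of secretory cells, differed by -0.24 and Sdc1, a surface proteoglycan, by 0.02, and neither passed, nor did Derl3 (-0.30) and Fkbp11 (-0.20). Probe sets of variable segments can share signal between related segments.

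T-cell genes started below the floor. Cd3g, a chain of the T-cell receptor complex, lay between 2.63 and 2.69 in the 4 week 8 arrays and at 7.74, 7.74, 7.05 and 6.95 in the 4 LTBR-Ig arrays. This was a 26.1-fold rise (adjusted p = 3.4e-10), and the MOPC-21 arrays spanned 6.74 to 8.04. Cd3d, another chain of the complex, rose 25.7-fold and Cd2, an adhesion receptor of T cells, rose 8.11-fold. Of 16 matched T-cell genes 8 rose, 2 were tested without passing and 6 were not tested. No member lay above the floor in 2 week 8 arrays, so the direction of those that passed follows from the filter.

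Of 11 matched genes of regulatory and activated T cells 5 rose. Each was above the floor after LTBR-Ig but not at week 8, and neither of the 2 above it at week 8 rose. Pdcd1, which encodes PD-1, stood at 5.65, 5.68, 3.77 and 3.85 after LTBR-Ig against 2.85 to 2.91 at week 8 (log2 difference 1.85, adjusted p = 0.0059). LTBR-Ig replicates 1 and 2 were above the floor and replicates 3 and 4 just below it. Ctla4 rose 3.47-fold, Tnfrsf4 (OX40) 6.12-fold and Tnfrsf18 (GITR) 7.07-fold. Foxp3 and Il2ra were among the 4 members of that list not tested, and Ikzf2 (log2 difference 0.94) and Bcl6 (-0.42) were not called. Among 16 matched genes of cytotoxic lymphocytes, 4 rose, namely Ctsw, Klrd1, Nkg7 and Klrk1, and 11 were not tested. None was above the floor at week 8, so those tested could only be higher, and Klrk1 was above it in 2 LTBR-Ig arrays. Without LTBR-Ig replicates 1 and 2, in which a salivary transcript was high as given further on, Pdcd1 was not called (log2 difference 0.92).

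Macrophage and dendritic cell genes rose too, and most of them were measurable at the start. Of 24 matched genes 19 rose, and of the 16 above the floor at week 8, 15 rose. Mrc1, the mannose receptor of resident macrophages, was the other one, with a log2 difference of -0.09. Mpeg1, a pore-forming protein of macrophages, stood at 4.83, 5.08, 4.52 and 6.26 at week 8 and at 10.14, 10.74, 9.12 and 9.44 after LTBR-Ig, with no overlap and a 25.8-fold rise (adjusted p = 4.3e-09). Ly86, a partner of the receptor CD180, rose 28.9-fold, Fcer1g, the common Fc receptor chain, rose 17.9-fold and C1qc, a chain of complement C1q, rose 17.2-fold. The list median was 3.13 under LTBR-Ig, 2.80 under MOPC-21 and 2.14 without treatment. Fcer1g differed between LTBR-Ig and MOPC-21 by 0.98, which did not pass (adjusted p = 0.43). Of 9 matched neutrophil genes 8 were not tested and none rose.

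Every matched gene of antigen presentation rose. All 10 genes of MHC class II presentation and all 13 of class I were higher, and of those above the floor at week 8, 6 of 6 and 10 of 10 were. H2-Ab1, a class II beta chain, stood at 6.14, 6.87, 5.65 and 7.17 in week 8 replicates 1 to 4, and reached 12.39, 12.44, 11.51 and 11.82 in the 4 LTBR-Ig arrays. The groups did not overlap, and the rise was 48-fold (log2 difference 5.58, standard error 0.41, adjusted p = 6.1e-11). Against MOPC-21 the difference was 0.06 (adjusted p = 0.99). H2-K1, a classical class I heavy chain, rose 23.4-fold from an already high mean of 8.10. Psmb8 and Psmb9, subunits of the immunoproteasome, rose 34.4-fold and 31.2-fold, and Nlrc5, the transactivator of class I genes, rose 24.5-fold. Psmb9 and Nlrc5 were below the floor in all week 8 arrays, so their direction follows from the filter.

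Interferon-response genes rose as well, and their promoters are shown because several members carry the motifs through which interferon-activated factors are known to bind. The sequences are RefSeq's, build GRCm38.p6, and each is the 250 bases before the gene's start, 5′ to 3′ on the gene's strand. Capitals mark matches on either strand to GAAA, any 2 bases and GAAA again, a form of the interferon-stimulated response element (ISRE), or to TTCNNNGAA, the gamma-activated sequence (GAS). Gbp2 (chr3:142620413-142620662, plus strand) encodes a guanylate-binding protein. Igtp (chr11:58199306-58199555, plus strand) and Irgm1 (chr11:48871421-48871670, minus strand) encode immunity-related GTPases. Irf1 (chr11:53769764-53770013, plus strand) encodes a transcription factor of the interferon response, and Glycam1 (chr15:103565082-103565331, minus strand) is the HEV gene described further on, which did not rise. These 5 were chosen after their values were seen.
Gbp2: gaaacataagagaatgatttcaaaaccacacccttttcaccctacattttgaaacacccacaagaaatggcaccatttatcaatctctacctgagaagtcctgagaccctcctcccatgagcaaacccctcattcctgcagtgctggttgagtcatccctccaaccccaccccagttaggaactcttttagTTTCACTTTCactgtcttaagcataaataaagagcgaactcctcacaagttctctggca
Igtp: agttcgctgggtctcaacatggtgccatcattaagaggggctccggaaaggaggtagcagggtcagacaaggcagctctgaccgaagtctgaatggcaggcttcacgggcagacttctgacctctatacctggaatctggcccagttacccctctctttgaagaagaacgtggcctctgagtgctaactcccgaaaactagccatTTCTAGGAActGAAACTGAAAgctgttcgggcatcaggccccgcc
Irgm1: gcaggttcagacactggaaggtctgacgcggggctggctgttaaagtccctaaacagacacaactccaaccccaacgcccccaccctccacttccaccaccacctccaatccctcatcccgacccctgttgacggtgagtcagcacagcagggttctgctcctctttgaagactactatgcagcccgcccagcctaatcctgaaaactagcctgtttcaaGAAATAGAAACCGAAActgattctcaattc
Irf1: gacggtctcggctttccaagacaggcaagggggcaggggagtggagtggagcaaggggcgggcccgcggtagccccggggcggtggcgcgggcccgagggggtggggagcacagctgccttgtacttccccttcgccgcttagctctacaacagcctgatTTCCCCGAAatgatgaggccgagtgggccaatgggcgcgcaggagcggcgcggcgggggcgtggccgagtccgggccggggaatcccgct
Glycam1: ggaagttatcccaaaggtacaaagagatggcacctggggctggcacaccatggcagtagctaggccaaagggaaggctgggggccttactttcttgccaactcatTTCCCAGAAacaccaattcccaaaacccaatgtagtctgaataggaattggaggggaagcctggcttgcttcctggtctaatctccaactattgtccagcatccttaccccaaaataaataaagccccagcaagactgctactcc

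The ISRE letters were present in the Gbp2 and Igtp promoters and at 2 overlapping positions in that of Irgm1, and the GAS letters in those of Igtp, Irf1 and Glycam1. Promoters were found for 24 of the 33 matched interferon-response genes, and 58.3% of them held the ISRE letters and 29.2% the GAS letters. Among all 27025 promoters these shares were 3.04% and 7.18%, and among the 19 promoters found for members that rose they were 57.9% and 36.8%. The list gathers interferon-response genes, so the shares describe the list and not the rise here. For the 11 class I promoters found they were 9.09% and 18.2%. The 2 patterns can overlap each other in a sequence. A match describes the letters and does not show that a factor bound there.

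Of the 33 interferon-response genes, 27 rose, 3 were tested without passing and 3 were not tested, and of the 23 above the floor at week 8, 20 rose. Gbp2 stood at 4.86, 5.99, 3.31 and 5.74 at week 8 and at 10.56, 10.83, 9.60 and 9.94 after LTBR-Ig, a 38.3-fold rise with no overlap (adjusted p = 5.5e-09). Igtp rose 33.7-fold, Irf1 12.9-fold and Irgm1 7.96-fold. For Irgm1, week 8 arrays reached 6.80 and the lowest LTBR-Ig array was 8.07. Zbp1, a sensor of nucleic acids, differed by 3.77, Ifit3, an antiviral RNA-binding protein, by 2.68 and Mx1, an antiviral GTPase, by 2.30 on the log2 scale. The median of the whole list against week 8 was 2.30 under LTBR-Ig, 1.64 under MOPC-21 and 1.26 without treatment. No member was called between LTBR-Ig and MOPC-21 or between LTBR-Ig and untreated mice of week 12.

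**Figure D2:**
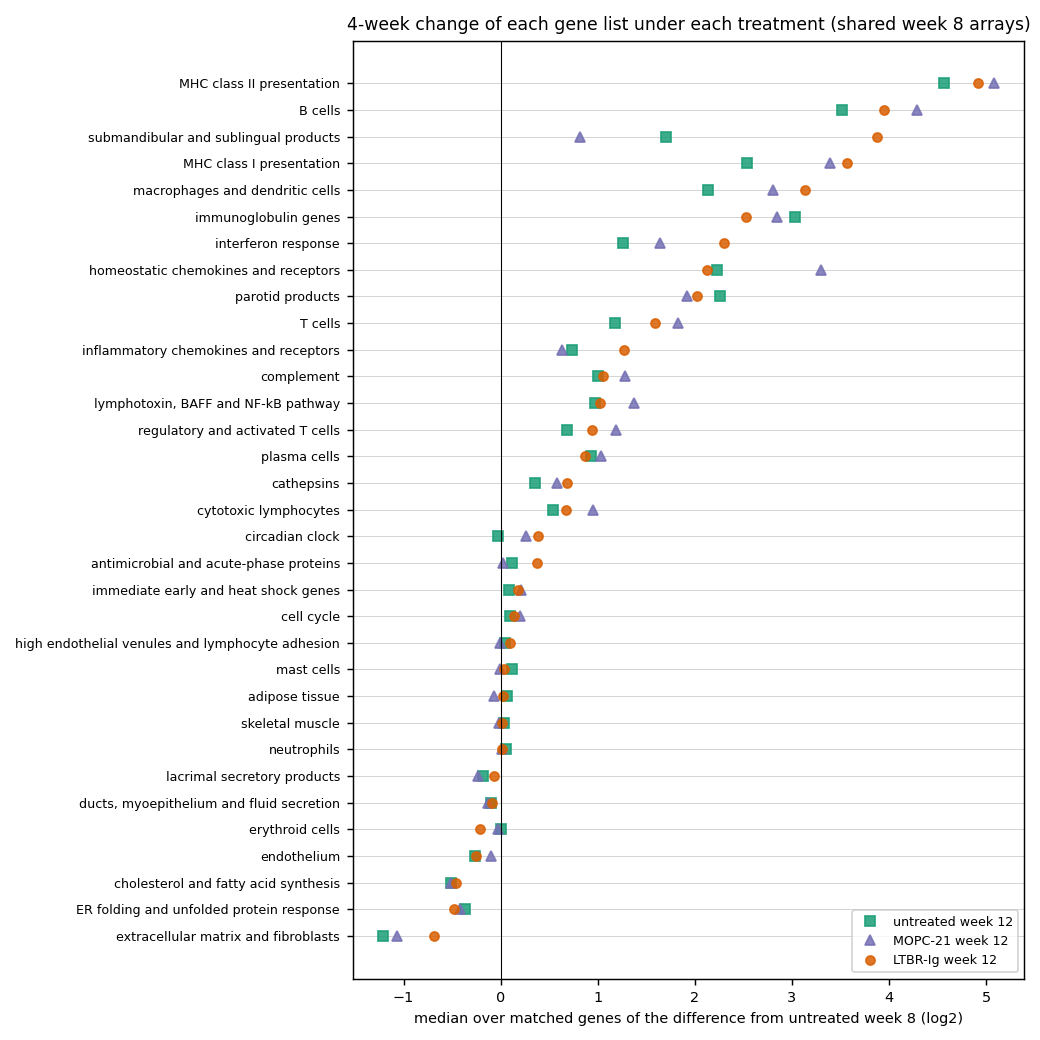
Median, over all matched genes of each list, of the difference from untreated week 8 (log2, horizontal axis) for LTBR-Ig, MOPC-21 and untreated arrays of week 12. The 3 comparisons share the week 8 arrays. MHC class II genes lie at 4.92, 5.08 and 4.57, and the list of submandibular and sublingual products lies at 3.88 under LTBR-Ig against 0.82 and 1.70 in the references.

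Chemokines and their receptors showed both kinds of starting point. Cxcl13, the ligand that draws B cells to follicles, stood at 4.55, 4.70, 3.88 and 5.35 at week 8 and at 10.25, 11.29, 9.42 and 9.38 in the 4 LTBR-Ig arrays. Every treated array was above every starting array, a 44.2-fold rise (log2 difference 5.47, standard error 0.65, adjusted p = 2.2e-07). With MOPC-21 it was 9.32 to 11.31 and without treatment 8.27 to 11.25, and the difference from MOPC-21 was -0.08 (adjusted p = 0.99). Cxcl12, a stromal chemokine, rose 2.57-fold from a level of 6.76 to 7.25.

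The 3 receptors of lymphoid chemokines were below the floor at week 8. Cxcr4, the receptor of CXCL12, rose 13.7-fold to 6.63, 7.73, 6.11 and 5.95, above the floor in all 4 treated arrays. Cxcr5, the receptor of CXCL13, was 5.29, 5.93, 3.61 and 3.37 across the treated arrays, above the floor only in replicates 1 and 2, against 2.40 to 2.48 at week 8. Its log2 difference was 2.12 (adjusted p = 0.014), against 3.30 under MOPC-21. Ccr7, the receptor of CCL19 and CCL21, was likewise higher in replicates 1 and 2, at 5.94, 5.60, 3.77 and 3.06, with a log2 difference of 1.83 (adjusted p = 0.013). Neither gene kept its call without LTBR-Ig replicate 2 (log2 differences 1.65 and 1.5), and Ccr7 lost it without replicate 1 (1.38). In the list of homeostatic chemokines and receptors, Ccl19, Ccl21a, Ccl21b and Ccl21c had no probe set with 1 gene symbol and were not assessed. All 5 matched members rose, the 3 receptors through the LTBR-Ig arrays alone. The median of these 5 was 2.12 under LTBR-Ig, 3.30 under MOPC-21 and 2.23 without treatment. None differed between LTBR-Ig and MOPC-21 by the test.

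Among inflammatory chemokines and receptors 15 of 27 rose and 9 were not tested. Above the floor after LTBR-Ig but not at week 8 were 13 of the 18 tested, and of the 5 above it at week 8, 4 rose. Cxcl9, an interferon-gamma-induced ligand of CXCR3, was at 3.13 to 3.36 in all week 8 arrays and at 10.02, 10.20, 8.64 and 9.25 after LTBR-Ig. It rose 80.1-fold (adjusted p = 3.4e-11), and the fold depends on a starting level below the floor. Ccl5, a chemokine of T cells and macrophages, rose 59.4-fold, Ccl8, a ligand of monocytes and T cells, rose 32.8-fold, and Cxcr3, the receptor of CXCL9, differed by 3.02 on the log2 scale. Cxcl9 and Ccl5 were below the floor in all week 8 arrays, so their direction follows from the filter.

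In the lymphotoxin and BAFF pathways Ltb and Tnfsf13b rose, and the blocked receptor did not pass the test. Ltbr stood at 6.95, 6.76, 7.19 and 6.96 at week 8 and at 6.60, 6.43, 6.66 and 7.08 after LTBR-Ig, overlapping groups with a log2 difference of -0.28 (adjusted p = 0.15). Ltb, which encodes lymphotoxin-beta, rose 29.2-fold, from 2.61 to 4.12 at week 8 to 7.48 to 9.02 (adjusted p = 6.5e-08). Tnfsf13b, which encodes the B-cell survival factor BAFF, rose 7.14-fold, and its receptor Tnfrsf13c rose 10.5-fold. Relb and Nfkb2, the transcription factors of the non-canonical NF-kB route, differed by 1.81 and 1.21 and were both called higher. Of 15 matched genes 8 rose, 3 did not pass and 4, including Lta, were not tested. Of the 5 above the floor at week 8, 2 rose, and 6 others were above it after LTBR-Ig but not at week 8. Ltb, Tnfsf13b and Tnfrsf13c were among these 6, so their direction follows from the filter.

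Innate effector lists moved in part. Of 11 matched complement genes 6 rose, of 13 cathepsins, lysosomal proteases, 5 rose, and of 17 antimicrobial and acute-phase proteins 7 rose, while none of these lists had a lower member. Of those above the floor at week 8, 4 of 6, 4 of 11 and 4 of 8 rose. Serpina3n, an acute-phase protease inhibitor, differed by 3.36 and Lcn2, a siderophore-binding protein, by 1.61 on the log2 scale, both called higher. Serpina3n was below the floor in all week 8 arrays, so its direction follows from the filter. Of 29 cell cycle genes 1 rose and 14 were not tested. That was 6.67% of those tested, against 9.38% of all genes tested. No mast cell or erythroid gene was called, of 7 and 3 matched.

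Glycam1 stayed below the floor under LTBR-Ig. It encodes a mucin that carries the L-selectin ligands of HEV. Its level was 3.04, 3.13, 2.98 and 3.17 at week 8 and 3.09, 3.24, 3.22 and 3.2 after LTBR-Ig, below the floor in all 8 arrays, so it was not tested between them. In untreated mice of week 12 it was 5.6, 5.5 and 7.42, and with MOPC-21 it was 7.35, 7.03, 5.65 and 7.39. Every control array of week 12 thus lay above 5 and every LTBR-Ig array below 4. Glycam1 was 12.7-fold lower after LTBR-Ig than after MOPC-21 (log2 difference -3.67, standard error 0.38, adjusted p = 8.3e-06) and lower than without treatment by -2.99 (adjusted p = 0.002). It entered these tests through the control arrays alone, and was called against MOPC-21 without any 1 of the 8 arrays. The folds depend on values near background.

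Other genes of lymphoid vessels differed in level and change. Madcam1, an addressin of mucosal vessels, and Chst4, a sulfotransferase of HEV, lay below 3 in all 15 arrays of the 4 groups. Chst2, a second sulfotransferase, was at 4.43 in LTBR-Ig replicate 1 and at 3.19 to 3.32 in the others, against 3.76 to 4.27 with MOPC-21 (log2 difference -0.48, adjusted p = 0.70). Vcam1, an adhesion molecule of activated endothelium, stood at 3.99, 3.35, 3.29 and 4.33 at week 8 and rose to 7.86, 8.07, 7.12 and 7.68 (15.4-fold, adjusted p = 5.2e-08). Icam1, another such molecule, rose 12-fold. Selp, which encodes P-selectin, rose 2.98-fold after LTBR-Ig to 3.65 to 4.37, while the 7 control arrays of week 12 held 2.47 to 3.23. That difference from MOPC-21 was 1.24 and did not pass (adjusted p = 0.052). Of 13 matched genes 3 rose, namely Vcam1, Icam1 and Selp, and 7 were not tested. None of the 3 above the floor at week 8 rose. Those that rose were above the floor after LTBR-Ig but not in 2 week 8 arrays, so their direction follows from the filter. For Selp only LTBR-Ig replicates 1 and 2 were above it.

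**Figure D3:**
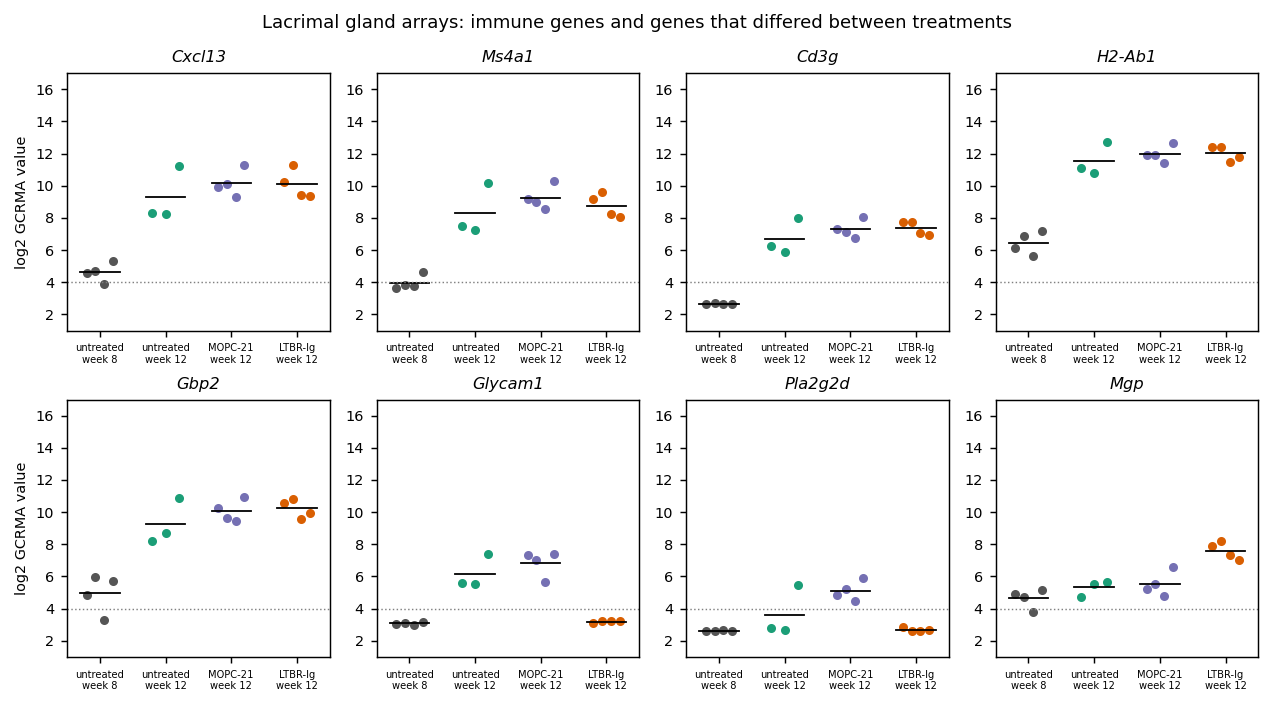
Log2 GCRMA values (vertical axis) of 8 genes in lacrimal arrays set out by group (horizontal axis, treatment with week). Points are single arrays, bars group means and the dotted line the floor of 4. Cxcl13, Ms4a1, Cd3g, H2-Ab1 and Gbp2 are high in all week 12 groups, Glycam1 stays between 3.09 and 3.24 after LTBR-Ig, and Mgp is at 7.01 to 8.21 there against 4.75 to 6.57 in the week 12 references.

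Pla2g2d, a secreted phospholipase of lymphoid tissue, was also below the floor in all 8 arrays. It was at 2.60 to 2.64 at week 8 and at 2.88, 2.62, 2.62 and 2.64 after LTBR-Ig, and at 4.86, 5.20, 4.50 and 5.90 with MOPC-21 (5.37-fold lower after LTBR-Ig, adjusted p = 0.011). Among untreated mice of week 12 only replicate 4, at 5.46, was above the floor, and the gene was not tested there. It entered the test through the MOPC-21 arrays alone, and the call was lost without MOPC-21 replicate 4 (log2 difference -2.17, adjusted p = 0.059).

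Serpina1b, a member of the antitrypsin family, rose from week 8 with LTBR-Ig, and less than with MOPC-21. It stood at 3.27, 4.84, 3.97 and 4.72 at week 8, at 6.78, 6.66, 5.64 and 6.78 after LTBR-Ig and at 8.80, 8.91, 8.28 and 9.48 after MOPC-21. No LTBR-Ig array reached a MOPC-21 array, and none fell to the week 8 range. Against week 8 the log2 difference was 2.26 (adjusted p = 7.7e-05), against MOPC-21 it was -2.41 (adjusted p = 0.011), and against untreated mice of week 12 it was -1.65 and did not pass (adjusted p = 0.32). The call against MOPC-21 was lost without LTBR-Ig replicate 3 (adjusted p = 0.053) or MOPC-21 replicate 4 (adjusted p = 0.059).

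Mgp and Saa3 exceeded their MOPC-21 levels in mice given LTBR-Ig. Mgp, the matrix Gla protein that inhibits calcification, stood at 4.89, 4.72, 3.79 and 5.16 at week 8 and at 7.88, 8.21, 7.32 and 7.01 after LTBR-Ig, a 7.81-fold rise (adjusted p = 8.1e-07). MOPC-21 arrays held 4.78 to 6.57, with a log2 difference from week 8 of 0.88 that did not pass (adjusted p = 0.062). Between the treatments the difference was 2.08 (standard error 0.38, adjusted p = 0.017), and it lost its call without any 1 of LTBR-Ig replicates 1 and 2 or MOPC-21 replicates 1, 2 and 3 (adjusted p = 0.059, 0.084, 0.062, 0.055 and 0.1). Saa3, an acute-phase serum amyloid, rose 2.36-fold to 4.29 to 4.81 and was 1.21 above MOPC-21 (adjusted p = 0.0042). It lay below the floor in all week 8 and MOPC-21 arrays and entered both tests through the LTBR-Ig arrays alone, which were just above it.

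Enpep, the membrane enzyme aminopeptidase A, had lower values in all 4 LTBR-Ig arrays than in any array of the other 3 groups. It stood at 8.75, 8.99, 9.05 and 8.58 at week 8, at 8.12, 7.21, 8.07 and 7.98 after LTBR-Ig and at 8.89 to 9.20 after MOPC-21. Its difference from MOPC-21 was -1.21 (adjusted p = 0.0016), and that from week 8, -0.99, fell just short of a 2-fold change (adjusted p = 4.3e-05). With only the arrays of the 2 treatments in the fit, Glycam1 and Pla2g2d were called and Serpina1b, Mgp, Enpep and Saa3 were not (adjusted p = 0.078, 0.38, 0.26 and 0.061). Leaving out the Amy1-high arrays (over 8), Glycam1 was called (adjusted p = 0.0067), and Pla2g2d, Serpina1b, Mgp, Enpep and Saa3 were not (adjusted p = 0.11, 0.079, 0.26, 0.051 and 0.079). Mgp, Saa3, Enpep and Serpina1b were described after their values were seen.

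Genes of secretion, metabolism and matrix were among the falls. The largest was that of Mup5, a major urinary protein made in the lacrimal gland, from 11.46, 11.28, 12.08 and 12.08 at week 8 to 6.28, 3.98, 7.93 and 8.26 after LTBR-Ig. The log2 difference was -5.11 (standard error 0.87, adjusted p = 3.5e-05), and MOPC-21 arrays, at 6.19 to 7.87, lay within the LTBR-Ig range. Cyp2b19, a cytochrome P450, dropped from 7.53 to 8.47 at week 8 to 2.97 to 3.73, below the floor in every treated array (25.7-fold, adjusted p = 1.5e-14). It entered the test through the week 8 arrays alone, so its direction follows from the filter. Sult1d1, a sulfotransferase, fell 9.68-fold, B4galt1, a galactosyltransferase, 11.1-fold, and Prom1, which encodes prominin-1, 7.73-fold.

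Among 11 matched lacrimal secretory products Mup5 and Car6 fell, Lyz1 rose and 7 were tested without passing. Car6, a secreted carbonic anhydrase, was at 14.16 to 14.66 at week 8 and at 14.11, 11.63, 12.42 and 12.68 after LTBR-Ig, where replicate 1 stayed just under the starting range (log2 difference -1.72, adjusted p = 0.0061). Lyz1, a lysozyme, rose 7.66-fold, and Lyz2, a lysozyme of the macrophage and dendritic cell list, rose 7.37-fold. Whether their probe sets share signal was not tested. Slpi, a secreted protease inhibitor with antimicrobial activity, rose 27.3-fold, from 3.38 to 4.31 up to 7.73 to 9.48. Slpi was above the floor in fewer than 2 week 8 arrays, so its direction follows from the filter. None of 21 matched genes of ducts, myoepithelium and fluid secretion was called, and 9 of them were not tested.

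Fibrillar collagens fell. Col1a1, the main chain of type I collagen, stood at 8.40, 8.80, 7.81 and 9.06 at week 8 and at 6.70, 6.13, 5.57 and 6.32 after LTBR-Ig, with no overlap (log2 difference -2.34, standard error 0.40, adjusted p = 3.9e-05). Col3a1, type III collagen, fell 3.28-fold, Col4a1, of basement membrane, 2.89-fold, and Sparc, a matrix-binding glycoprotein, 3.31-fold. Of 19 matched genes of matrix and fibroblasts 7 fell, none rose and 2 were not tested. Other members did not pass, with log2 differences of 0.22 for Dcn (decorin) and 0.17 for Fn1 (fibronectin). The list median was -0.69 under LTBR-Ig, -1.07 under MOPC-21 and -1.21 without treatment, and Col1a1 differed between LTBR-Ig and MOPC-21 by 1.28 (adjusted p = 0.28).

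Cholesterol and fatty acid synthesis had 3 of 23 matched genes lower and none higher. Of those tested 14.3% were lower, against 4.22% of all genes tested. Fdft1, squalene synthase, fell 3.66-fold, Sqle, squalene epoxidase, 4.22-fold to below the floor, and Me1, malic enzyme, which supplies NADPH for fatty acid synthesis, 2.08-fold. Sqle entered the test through the week 8 arrays alone, so its direction follows from the filter. In the stress-response list Atf4 and Asns, a transcription factor of amino acid stress and its target asparagine synthetase, fell 2.24-fold and 2.33-fold, Ddit3 rose 2.04-fold, and 19 of 22 did not pass. Lower were 9.09% of this list and higher 4.55%, against 4.22% and 9.38% of all genes tested. These few calls do not describe the list as a whole. Esam and Tek, of endothelium, fell 2.03-fold and 2.11-fold, and 7 other endothelial genes did not pass. Those 2 were 22.2% of the endothelial genes tested, against 4.22% lower among all genes tested. Tek was above the floor in fewer than 2 LTBR-Ig arrays, so its direction follows from the filter. Me1, Esam, Tek and Ddit3 lay near the 2-fold limit and lost their calls without 1 array, at -1 for Me1 without LTBR-Ig replicate 1, and at -0.90, -0.99 and 0.98 for Esam, Tek and Ddit3 without LTBR-Ig replicate 2.

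Clock genes moved in both directions. Dbp, a clock output factor, stood at 6.05, 6.53, 5.30 and 6.22 at week 8 and at 10, 10.38, 9.64 and 9.98 after LTBR-Ig (15.7-fold, adjusted p = 2.9e-13). Arntl, the core activator BMAL1, went the other way, from 5.57 to 6.58 down to 2.89 to 3.69 (log2 difference -2.83, adjusted p = 7e-08), and Nfil3, a repressor that opposes DBP, fell 9.8-fold. Arntl was below the floor in every LTBR-Ig array and entered the test through week 8 alone, so its direction follows from the filter. Per3 and Bhlhe40 rose 4.27-fold and 4.25-fold. Of 14 matched clock genes 6 rose and 1 fell. Dbp was also higher at week 12 with MOPC-21 (11-fold) and without treatment (10.2-fold), and LTBR-Ig differed from MOPC-21 by 0.51 (adjusted p = 0.46). The hour of collection is not in the labels and cannot be told apart from age.

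For these genes the week 8 arrays stood apart from all later lacrimal arrays, whatever their treatment. Dbp was at most 6.53 in the 4 week 8 arrays and at least 8.96 in the other 27 lacrimal arrays, Arntl was at least 5.57 against at most 4.67, and Cyp2b19 at least 7.53 against at most 3.73. Col1a1 was at least 7.81 against at most 6.70. Cxcl13 was at most 5.35 against at least 7.07. Of 10 matched immediate early and heat shock genes 3 rose, 1 fell, 5 did not pass and 1 was not tested. Egr1 rose 5.11-fold, Junb 2.49-fold and Fos 2.91-fold, and the groups overlapped for Fos, with a lowest LTBR-Ig array of 6.02 and a highest week 8 array of 6.10. Hspa1b, an inducible heat shock protein, fell 4.97-fold. The part of handling or collection in these changes was not tested.

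**Figure D4:**
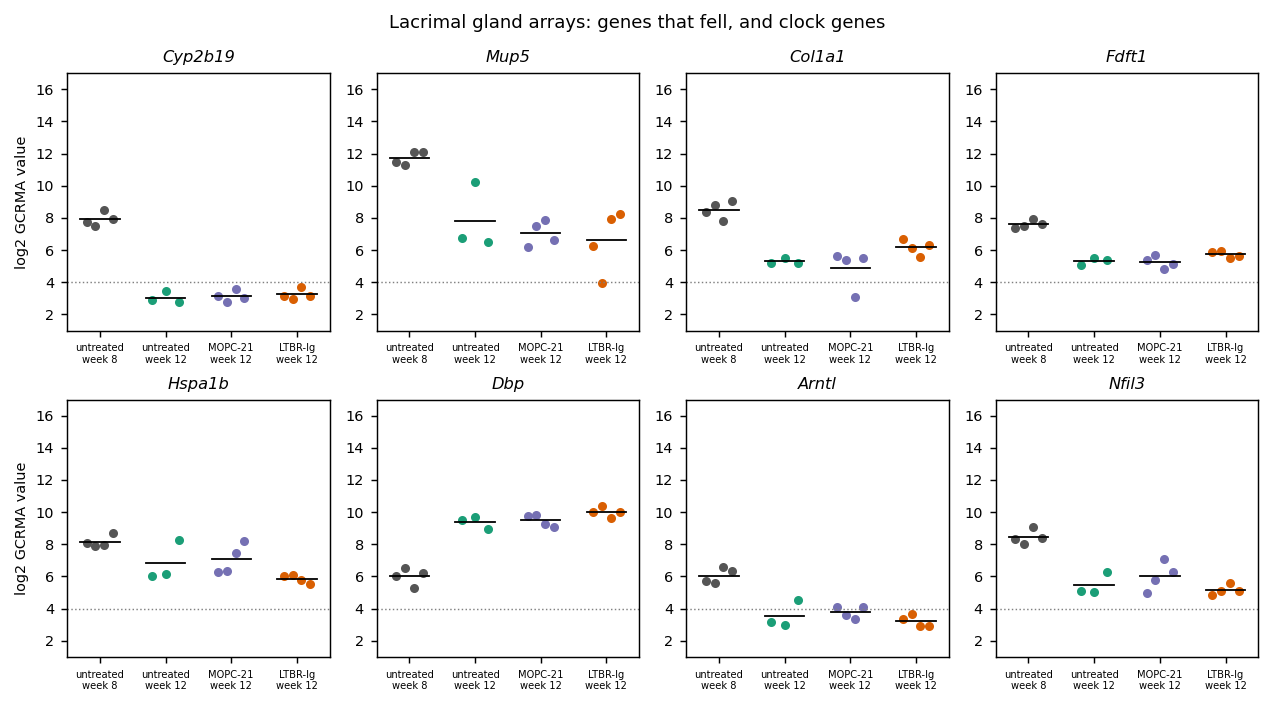
Log2 GCRMA values (vertical axis) of 6 genes that fell (Cyp2b19, Mup5, Col1a1, Fdft1, Hspa1b, Nfil3) and of the clock genes Dbp and Arntl, by treatment and week (horizontal axis). Points are arrays, bars group means and the dotted line the floor of 4. Dbp is at 5.30 to 6.53 at week 8 and at 8.96 to 10.38 in all 11 week 12 arrays.

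Products of salivary glands were high in some treated arrays. Amy1, the amylase of parotid gland, stood at 13.82, 8.84, 5.66 and 3.53 in LTBR-Ig replicates 1 to 4 and at 3.24 to 3.74 in all week 8 arrays, a log2 difference of 4.51 that did not pass (adjusted p = 0.19). Bpifa2, a parotid secretory protein, followed the same order, at 13.73, 9.70, 5.54 and 1.84. It was not particular to LTBR-Ig, since Amy1 reached 13.87 in MOPC-21 replicate 1 and 12.49 in untreated replicate 2 of week 12. Over the 7 matched parotid genes none was called, and their mean per array was 4.84 to 10.75 after LTBR-Ig and 4.76 to 4.87 at week 8. Of 13 muscle and 8 adipose genes none was called, and 12 and 5 of them were not tested, among them Acta1 and Ckm (means 3.21 and 2.31 after LTBR-Ig).

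Submandibular and sublingual products rose in 11 of 20 cases, with 7 tested without passing and 2 not tested. Above the floor after LTBR-Ig but not at week 8 were 11 of the 18 tested, and of the 7 above it at week 8, 2 rose. Their mean per array was 4.62 to 4.92 at week 8, and 11.56, 7.76, 7.47 and 6.11 in LTBR-Ig replicates 1 to 4, the order in which Amy1 lay. In MOPC-21 replicate 1, where Amy1 was 13.87, the list mean was 6.66. In untreated replicate 2 of week 12, where Amy1 was 12.49, it was 7.33. Each of these means was the highest of its group, and both were below the 11.56 of LTBR-Ig replicate 1. A link between Amy1 and this list was not tested. Prol1, a proline-rich mucin-like protein, had the largest rise among called genes whose groups did not overlap. It stood at 6.84, 5.17, 4.53 and 5.91 at week 8 and at 15.16, 12.02, 11.99 and 10.41 after LTBR-Ig, a log2 difference of 6.78 (standard error 1, adjusted p = 5.5e-06). Crisp3, a cysteine-rich secretory protein, was at 13.29, 10.15, 10.24 and 8.22 against 3.16 to 4.97 (log2 difference 6.73, adjusted p = 0.00015). Klk1, a tissue kallikrein, was at 12.35, 8.29, 8.01 and 6.62 against 2.93 to 3.06. For all 3 genes even the lowest treated array was above the starting range, and LTBR-Ig replicate 1 was highest. Crisp3 and Klk1 were above the floor in fewer than 2 week 8 arrays, so their direction follows from the filter.

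MOPC-21 arrays held 9.25 to 9.81 of Prol1 and 6.94 to 7.93 of Crisp3, and neither differed from LTBR-Ig by the test (adjusted p = 0.37 and 0.47). The list median against week 8 was 3.88 under LTBR-Ig, 0.82 under MOPC-21 and 1.70 without treatment, and none of its members was called between the treatments. Mucl1, another mucin-like product, was already at 11.37 to 12.33 at week 8 and at 15.04, 11.81, 11.66 and 9.81 after LTBR-Ig (log2 difference 0.27, adjusted p = 0.89). It turned to -0.71 without LTBR-Ig replicate 1. Probe sets of the closely related kallikrein genes may cross-hybridise, so values of a single kallikrein are uncertain. Amy1, Bpifa2 and Mucl1 were described after their values were seen.

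**Figure D5:**
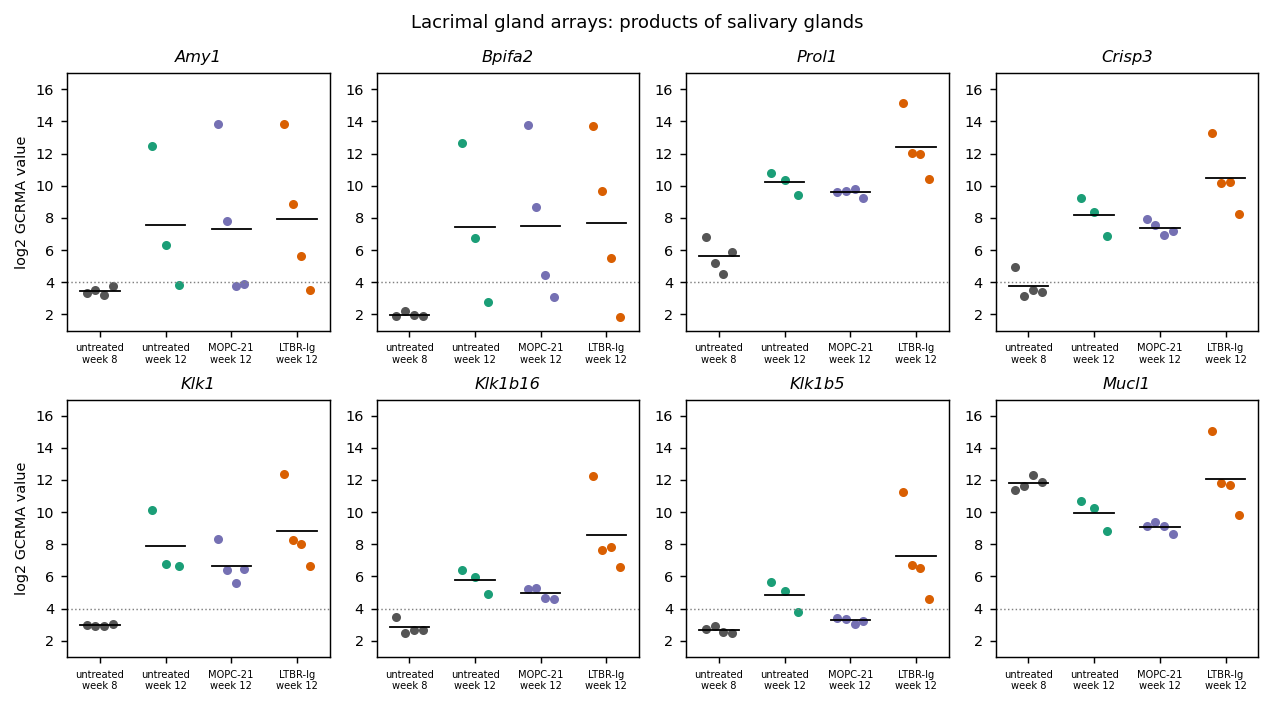
Log2 GCRMA values (vertical axis) of 8 salivary gland products in lacrimal arrays by treatment and week (horizontal axis). Points are arrays, bars group means and the dotted line the floor of 4. Amy1 and Bpifa2 are above 12 in a single array of each week 12 group, while Prol1 is above 9 in every week 12 array.

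Without the 2 LTBR-Ig arrays in which Amy1 lay above 8, replicates 1 and 2, only 2 treated arrays remained, and 1118 probe sets were higher and 710 lower. All 13 class I and all 10 class II genes were called higher then, as were 17 of the macrophage and dendritic cell list, 15 of the B-cell list, 21 of the interferon list and 7 of the T-cell list. Of the submandibular and sublingual list 6 were called in place of 11, and 10 matrix genes fell in place of 7. Without replicate 1 alone these counts were 13, 10, 18, 18, 27, 7, 9 and 9 in the same order. Replicates 1 and 2 also had the highest mean over the B-cell list, at 7.02 and 7.45 against 6 and 6.25 in replicates 3 and 4, and whether the salivary transcripts take part in these differences was not tested.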

How the data were processed

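Whole-gland RNA was measured on Affymetrix mouse genome arrays. The authors deposited log2 values that they had normalized with GCRMA over the arrays, and the version is not given in the sources used here. Arrays carry no read depth, so the number of arrays limits the precision. Groups came from the sample labels. Of 45101 probe sets, 34958 had 1 gene symbol in the platform annotation, 932 had several and 9211 were not listed, so they carry no name here. Where several single-symbol probe sets named 1 gene, the one brightest on average across all 61 arrays stood for it (18194 genes).

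Group means were fitted with limma 3.58.1 in R 4.3.3 over all 31 lacrimal arrays, which share 1 estimate of the spread, with an intensity trend and Benjamini-Hochberg adjustment over all probe sets with at least 2 of the compared arrays above 4. Called means a fold of 2 or more and an adjusted p under 0.05. The largest rises and falls, called members of gene lists, and genes called between treatments were named, with further genes marked where they occur. The members and lists were chosen with earlier results of these data known. Replicates are separate mice per the methods. The steps were tested on simulated data. Alternatives were other floors, call rules, normalization, array weights, a replicate block, only the compared arrays, each array left out, and arrays with Amy1 above 8 left out. Promoters were read from RefSeq, build GRCm38.p6, and searched on both strands.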

Additional observations from a re-analysis of the deposited data

Results flagged for a closer look

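Single arrays stood apart from the other 3 of their group in 16 cases, and chance flags about 1 in 20 groups. The rule was applied to at least 120 named genes in each of the 2 groups, so a similar number could arise by chance. After LTBR-Ig, replicate 1 was low for Igha (14.21 against 14.84 to 14.95) and high for Chst2 (4.43 against 3.19 to 3.32), Pla2g2d (2.88 against 2.62 to 2.64) and Tmigd1 (5.17 against 3.59 to 3.71). Replicate 2 was low for Enpep (7.21 against 7.98 to 8.12). Replicate 3 was low for Nkg7 (3.40 against 5.25 to 5.36), Serpina1b (5.64 against 6.66 to 6.78) and Ube2c (3.95 against 4.92 to 5.05).

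At week 8, replicate 4 was high for the B-cell genes Cd22 (3.81 against 2.57 to 2.66), Cd79b (4.48 against 3.15 to 3.33) and Ms4a1 (4.65 against 3.64 to 3.81), and low for Sult1d1 (7.54 against 8.20 to 8.32). Replicate 1 was high for Klk1b16 (3.48 against 2.51 to 2.68) and low for Junb (4.16 against 4.37 to 4.38) and Asns (11.18 against 11.46 to 11.52). Replicate 3 was low for Cxcl12 (6.76 against 7.19 to 7.25).

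The 4-week change differed between LTBR-Ig and MOPC-21 by limma for 10 probe sets, as log2 differences. Glycam1 (-3.67, adjusted p = 8.3e-06), Pla2g2d (-2.43, 0.011), Serpina1b (-2.41, 0.011, and -2.31, 0.015, by a second probe set), Enpep (-1.21, 0.0016) and Slc11a2 (-1.05, 0.01) were lower after LTBR-Ig. Mgp (2.08, 0.017) and Saa3 (1.21, 0.0042) were higher. A pair of probe sets with no listed gene differed by 1.23 (0.026) and -1.46 (0.01). Since both changes start from the same week 8 arrays, each is the difference between the treatments at week 12.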

How the results depend on the processing

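Of probe sets against week 8, 1587 were higher and 866 lower. The count higher was 974 with a floor of 6, 803 with a level above 4 required in each group, 843 by posterior probability and 3071 with no minimum fold. The count lower was 569 by posterior probability and 6026 with no minimum fold. With each array left out in turn, 1404 to 1723 were higher and 726 to 1029 lower. Between LTBR-Ig and MOPC-21, 10 probe sets were called, 3 in a fit to those 8 arrays alone, 3 without arrays with Amy1 above 8, and 5 to 12 with each array left out (5 without LTBR-Ig replicate 3, 6 without MOPC-21 replicate 4). Against untreated week 12, 1 was called, 0 in a fit to those groups alone, 0 without the Amy1-high arrays, and 1 to 87 with each array left out (87 without untreated replicate 4, 4 without LTBR-Ig replicate 3). MOPC-21 against week 8 gave 2129 to 2715 with each array left out, and untreated week 12 against week 8 gave 1391 to 2213. Mucl1 turned from 0.27 to -1.07 without the Amy1-high arrays, and ranged from -0.71 (without LTBR-Ig replicate 1) to 1.03 (without LTBR-Ig replicate 4) with each array left out. The cause of these changes was not tested.

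Replicate numbers did not pair the arrays, since the deviations of same-numbered arrays correlated at 0.05, 0.06, 0.21 and -0.07. With the replicate block, 1590 probe sets were higher and 866 lower, LTBR-Ig differed from MOPC-21 in 14 and from untreated week 12 in 2, and 2437 and 1895 were called for MOPC-21 and untreated mice against week 8.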
